A study of Mus musculus with 6 samples.

Results

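Genes of angiotensin, endothelin and adrenergic signalling were examined in left ventricular tissue of mice with and without sickle haemoglobin. The set was chosen by name, with earlier results of these data known. It held 9 genes: Agt, Ace, Agtr1a, Edn1, Ednra, Ednrb, Adra1a, Adra1b and Adrb1. A gene entered where the array annotation gave a row of the deposited table to that symbol alone, with the brightest row standing for the gene. This gave 6 of the 9 genes, with 1 row each, among 21506 genes tested; Ednra, Adra1a and Adrb1 had no row under their symbol or gene number and were not analysed here. Total RNA of 3 sickle and 3 control mice, all male, was measured with 1 Affymetrix Mouse Gene 2.0 ST array per mouse. Both groups carried the alpha-globin replacement Hbatm1(HBA)Tow on a B6;129 background; sickle mice were homozygous for Hbbtm2(HBG1,HBB*)Tow and control mice for the non-sickling Hbbtm3(HBG1,HBB)Tow, and mice of both kinds were used between 10 and 14 weeks of age. Both groups therefore made human in place of mouse haemoglobin, and they differed in whether the human beta chain was the sickling form, in every tissue. No treatment of the mice that gave RNA is named in the labels.

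These signals set vessel tone and the force and rate of the heart. Angiotensinogen, the product of Agt, is cut by renin and then by angiotensin-converting enzyme (Ace) to angiotensin II, which acts through the AT1 receptor, Agtr1a in the mouse. Endothelin-1, the product of Edn1, is a constrictor peptide of endothelial cells that acts through the ETA receptor on muscle and the ETB receptor, Ednrb, which on endothelium clears endothelin and releases nitric oxide. Noradrenaline from sympathetic nerves acts on beta receptors, which raise cyclic AMP, and on alpha-1 receptors such as Adra1b, which couple through Gq to phospholipase C.

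Of the 6 measured genes, Ednrb and Ace were higher and Adra1b and Agt lower in every sickle array than in any control array, while Agtr1a and Edn1 overlapped between the groups. No gene of the set passed an adjusted p of 0.05 in limma's moderated test with Benjamini-Hochberg adjustment over all 21506 genes, which 39 genes did (0.181%). The 4 genes without overlap had an unadjusted p under 0.05, 2 of them higher and 2 lower in sickle. Over all genes, 8.69% had such a p (4.30% higher and 4.38% lower), and 16.0% had no overlap between the groups (7.61% higher and 8.36% lower). In a fit of only the 10753 genes at or above the median brightness, 4 members had such a p, beside 12.2% of those genes. The signal is a log2 value, so that 1 unit is a doubling, and each difference below is sickle minus control on that scale with its standard error. With 3 arrays per group, p-values measure only the spread between these arrays, moderated by that of all genes. With 1 array per mouse, that spread does not separate mouse, tissue sample and array.

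Since RNA came from whole tissue, fewer cells of a type and less RNA per cell cannot be told apart. Sickle replicate 3 stood apart from the other arrays, with 375 genes over 2-fold away from its group mates' mean and 21 to 118 in each other array. In that array the median shift from the control mean was 0.99 for fibroblast markers and 1.38 for macrophage and monocyte markers, against at most 0.19 in the other sickle arrays. Each of the 6 genes is therefore given with and without it. Control replicate 3 differed from the other controls in atrial markers. The median shift of 6 such markers was -0.35, -0.33 and 0.68 in control replicates 1, 2 and 3. Among them, Sln had 3.16, 3.36 and 8.08 and Myl7 4.31, 4.51 and 7.75, while Nppa had 12.63, 12.72 and 12.74. Whether that sample held atrial tissue was not tested. Cardiomyocyte markers were bright on all arrays, with a mean over 8 genes between 12.65 and 12.67 in control and between 12.49 and 12.69 in sickle. All 6 measured genes were brighter than 95% of 1082 rows for olfactory receptors, a family mostly silent outside the nose, whose 95th percentile lay at 4.93.

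The windows before the annotated start sites of the 3 genes that stayed furthest from the control arrays without sickle replicate 3 (Adra1b, Ednrb and Agt) are shown for reference; the data give 1 value per gene and do not tell its starts apart. Each runs 5′ to 3′ over the 250 bases before the start, from RefSeq on GRCm38.p6, all 3 genes being on the minus strand. Capitals mark matches, on either strand, to 4 short motifs: TATAAA (the TATA box), GATAAG (bound by GATA factors), ACGTG (the core of hypoxia response elements) and TGACG (the core of cyclic AMP response elements, which can overlap the former). Adra1b has 2 annotated starts.
Ednrb, chr14:103843702-103843951: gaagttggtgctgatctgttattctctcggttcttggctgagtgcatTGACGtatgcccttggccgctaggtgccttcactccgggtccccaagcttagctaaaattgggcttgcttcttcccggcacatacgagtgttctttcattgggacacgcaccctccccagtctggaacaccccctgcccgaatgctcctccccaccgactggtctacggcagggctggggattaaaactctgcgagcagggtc
Agt, chr8:124569707-124569956: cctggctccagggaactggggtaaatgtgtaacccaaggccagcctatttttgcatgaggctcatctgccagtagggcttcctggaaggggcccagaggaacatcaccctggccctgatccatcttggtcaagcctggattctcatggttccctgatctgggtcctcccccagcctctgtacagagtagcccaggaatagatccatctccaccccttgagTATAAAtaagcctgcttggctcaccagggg
Adra1b at the upstream start, chr11:43901238-43901487: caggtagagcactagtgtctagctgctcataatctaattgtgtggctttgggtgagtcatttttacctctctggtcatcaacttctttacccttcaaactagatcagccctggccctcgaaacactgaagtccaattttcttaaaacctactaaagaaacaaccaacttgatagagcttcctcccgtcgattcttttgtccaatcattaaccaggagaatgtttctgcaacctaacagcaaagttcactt
Adra1b at the downstream start, chr11:43836490-43836739: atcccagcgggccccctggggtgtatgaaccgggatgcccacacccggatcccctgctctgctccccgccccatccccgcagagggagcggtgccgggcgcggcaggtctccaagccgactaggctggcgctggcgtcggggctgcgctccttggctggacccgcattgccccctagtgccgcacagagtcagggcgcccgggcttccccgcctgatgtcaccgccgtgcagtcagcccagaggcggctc
The Agt window held a TATA box from 30 to 25 bases before the start and no CG dinucleotide. The Ednrb window held 11 CG dinucleotides and 1 TGACG, from 203 to 199 bases before the start. The 2 Adra1b windows held none of the 4 motifs and differed in composition, with 3 CG dinucleotides and 41.6% G or C upstream against 22 and 72.8% downstream. Over 32851 such windows, the median was 6 CG dinucleotides and 52.4% G or C, and 12.4% held TATAAA, 6.55% GATAAG, 16.6% ACGTG and 17.8% TGACG. These matches are letters in a window and show no binding.

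Among the ligand precursors and enzymes, Agt, which encodes the precursor of all angiotensin peptides, had signals of 6.78, 7.03 and 6.83 in control replicates 1, 2 and 3, and of 6.54, 6.52 and 6.31 in the sickle replicates. The 3 sickle arrays all lay below the dimmest control array. The means were 6.88 ± 0.13 and 6.46 ± 0.12 (SD, n = 3), a difference of -0.42 ± 0.11 (95% interval -0.69 to -0.16), or 1.34-fold lower in sickle, with a limma adjusted p of 0.407. Without sickle replicate 3 the difference was -0.35, with a limma adjusted p of 0.438.

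Ace, the enzyme that makes angiotensin II, had 8.85, 8.83 and 8.66 in the control arrays and 8.97, 9.15 and 9.96 in the sickle arrays. All sickle arrays were above control, 2 of them by a small margin and replicate 3 by far more. The difference was 0.58 ± 0.24 (95% interval 0.02 to 1.14; limma adjusted p = 0.566), or 1.5-fold. Without sickle replicate 3 it was 0.28 ± 0.11, with a limma adjusted p of 0.522. The unadjusted limma p for Ace was 0.044 over all arrays and 0.014, 0.041 and 0.039 without sickle replicates 1, 2 and 3. It was 0.072, 0.079 and 0.116 without control replicates 1, 2 and 3. Ace is made by endothelium and also by activated macrophages. Relative to the control mean, Ace stood at 0.19, 0.37 and 1.18 in sickle replicates 1, 2 and 3. The median of 9 macrophage and monocyte markers stood at 0.04, 0.19 and 1.38 in the same arrays, and that of 9 endothelial markers at 0.04, -0.02 and 0.06. All 9 macrophage and monocyte markers had a higher mean in sickle, and their mean level ranged from 7.51 to 7.77 in control and from 7.66 to 8.89 in sickle, with no marker within the range of the dim reference. Of the endothelial markers, 6 had a higher and 3 a lower mean in sickle. The part of macrophages or of endothelium in the Ace difference was not tested.

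Agtr1a, the main AT1 receptor gene of the mouse heart, had 9.20, 9.25 and 9.19 in control and 9.20, 9.02 and 8.39 in sickle. Sickle replicate 1 lay among the control arrays and replicate 3 far below them. The difference was -0.34 ± 0.20 (95% interval -0.80 to 0.12; limma adjusted p = 0.651), and without sickle replicate 3 it was -0.10 (limma adjusted p = 0.791). Agtr1b, its close paralog, differed by -0.14 ± 0.14 and was within the range of the olfactory receptor rows, as was Agtr2, the AT2 receptor gene (-0.11 ± 0.16). Whether the Agtr1a probes also bind Agtr1b transcripts is not stated in the sources used here.

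Edn1, the gene of the endothelin-1 precursor, had 6.82, 6.85 and 6.54 in control and 7.17, 6.59 and 7.25 in sickle. Replicates 1 and 3 of the sickle group were above all controls, while replicate 2 was within the control range. The difference was 0.26 ± 0.19 (95% interval -0.17 to 0.70; limma adjusted p = 0.700). It was 0.14 without sickle replicate 3 and 0.47 without sickle replicate 2 (limma adjusted p = 0.857 and 0.415), and 0.17 without control replicate 3. With 3 arrays per group, anything from a difference of 0.89-fold to 1.62-fold falls within the interval for Edn1.

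Ednrb, the ETB receptor, had 8.63, 8.63 and 8.62 in control and 9.03, 9.03 and 9.26 in sickle. The control arrays were nearly equal, and each sickle array was at least 0.39 above the brightest of them. The means were 8.63 ± 0.01 and 9.11 ± 0.14 (SD, n = 3), a difference of 0.48 ± 0.10 (95% interval 0.25 to 0.71; limma adjusted p = 0.270), or 1.4-fold. It ranked 126 of 21506 genes by p. The limma standard error uses the spread of both groups and borrows from all genes, so it exceeds what the control arrays alone would give. Without sickle replicate 3 the difference was 0.40 ± 0.09 (limma adjusted p = 0.261). Relative to control, Ednrb stood at 0.40, 0.41 and 0.64 in the sickle arrays, where endothelial markers stood at 0.04, -0.02 and 0.06 and smooth muscle and pericyte markers at 0.22, 0.09 and 0.36. The mean level of the 9 endothelial markers ranged from 9.61 to 9.76 in control and from 9.69 to 9.79 in sickle. Of these markers, 6 had a higher and 3 a lower mean in sickle, with 2 higher and 1 lower without overlap. The mean level of the 9 smooth muscle and pericyte markers ranged from 8.98 to 9.0 in control and from 9.09 to 9.36 in sickle, with all 9 higher. The part of either cell type in the Ednrb difference was not tested.

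Adra1b, the alpha-1B adrenergic receptor, had 6.42, 6.57 and 6.32 in control and 5.90, 5.86 and 5.34 in sickle. The groups did not overlap, and replicate 3 was again the furthest from control. The means were 6.44 ± 0.13 and 5.70 ± 0.31 (SD, n = 3), a difference of -0.73 ± 0.16 (95% interval -1.11 to -0.35; limma adjusted p = 0.296), or 1.66-fold lower in sickle. It ranked 167 of 21506 genes by p. Without sickle replicate 3 the difference was -0.55 ± 0.11 (limma adjusted p = 0.239). Relative to control, Adra1b stood at -0.53, -0.58 and -1.09 in the sickle arrays, where the 8 cardiomyocyte markers stood at 0.01, -0.02 and -0.13 and the 7 measured Schwann cell and nerve markers at -0.07, -0.05 and -0.34. The nerve list was mixed, with 2 markers higher and 5 lower in sickle, and Stmn2 the furthest at 0.63. Of the 7, 5 were above the 95th percentile of the olfactory receptor rows. The part of these cells in the Adra1b difference was not tested.

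**Figure D1:**
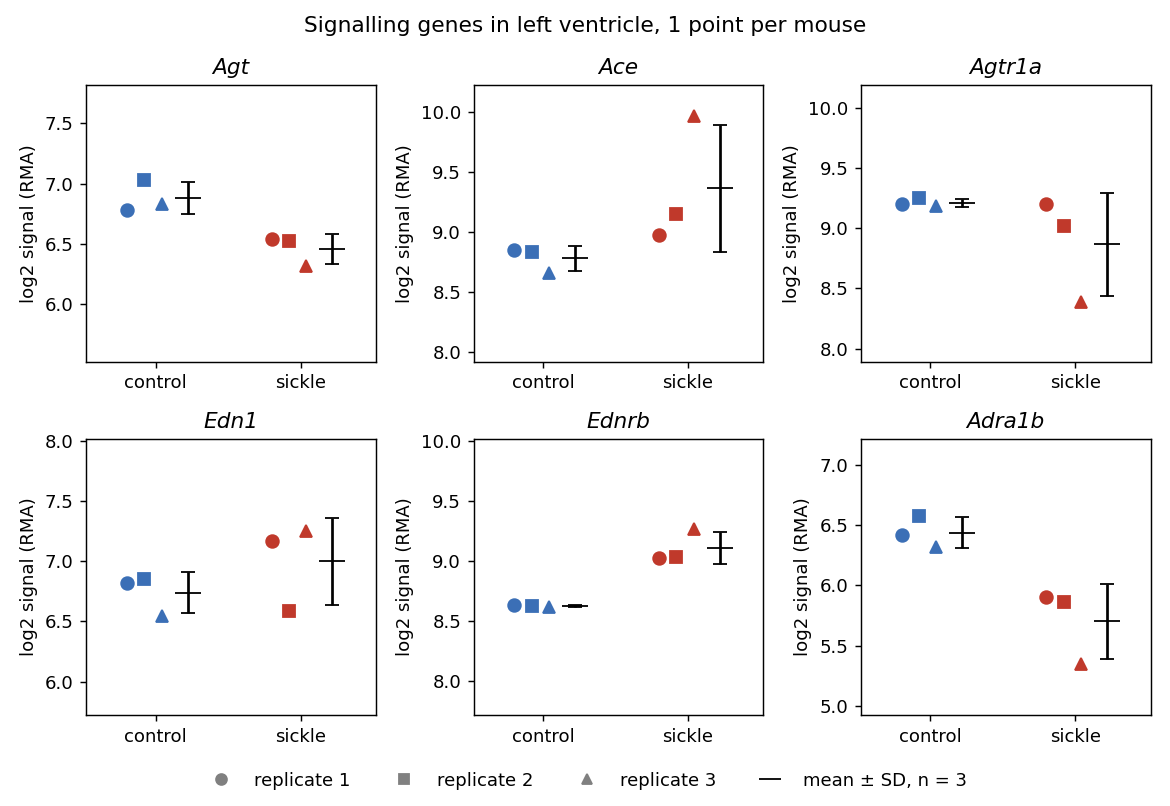
Log2 signal of the 6 measured genes on each array, with 1 point per mouse in control (blue) and sickle (red), the point shape giving the replicate and the bar the mean ± SD (n = 3); each panel spans the same number of log2 units. Ednrb and Ace are higher and Adra1b and Agt lower in all 3 sickle arrays, and replicate 3 is the sickle array furthest from control in all 6 panels.

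**Figure D2:**
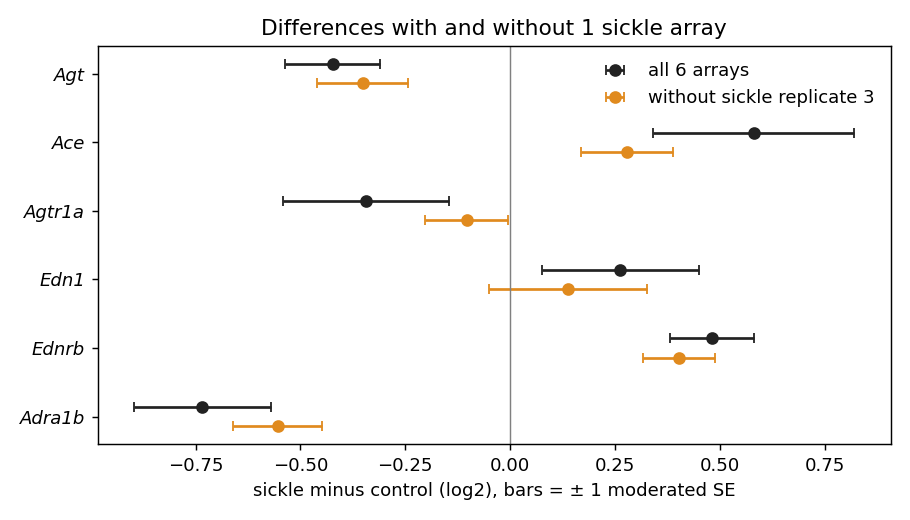
Sickle minus control on the log2 scale (x axis) for each gene, with the moderated standard error as bar, over all 6 arrays (black) and without sickle replicate 3 (orange). Leaving out that array moved Ace from 0.58 to 0.28 and Agtr1a from -0.34 to -0.10, while Ednrb moved from 0.48 to 0.40, Agt from -0.42 to -0.35 and Adra1b from -0.73 to -0.55.

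**Figure D3:**
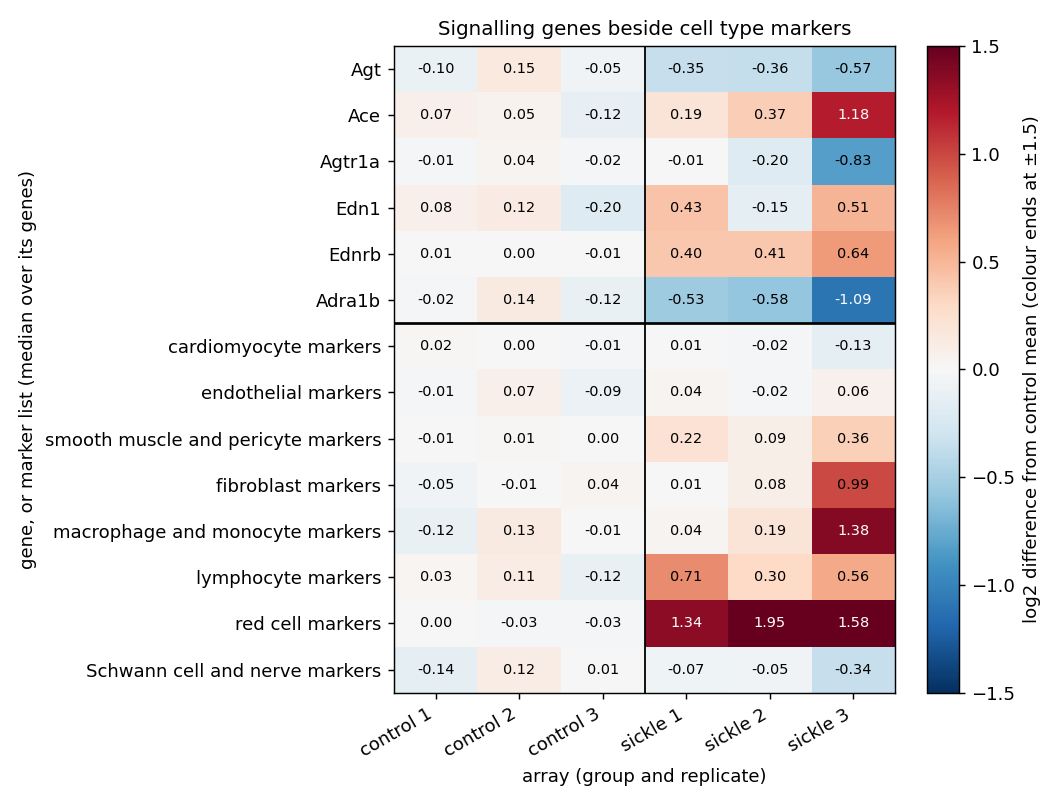
Log2 difference of each array from the control mean for the 6 genes (upper rows) and for lists of cell type markers (lower rows, median over the genes of a list), with colour from blue (lower) to red (higher). In sickle replicates 1 and 2, Ednrb stands at 0.40 and 0.41 and Adra1b at -0.53 and -0.58. Endothelial and cardiomyocyte markers lie between -0.02 and 0.04 there, and Schwann cell and nerve markers at -0.07 and -0.05. Smooth muscle and pericyte markers stand at 0.22 and 0.09, lymphocyte markers at 0.71 and 0.30 and red-cell markers at 1.34 and 1.95. In replicate 3, fibroblast and macrophage markers stand at 0.99 and 1.38.

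Other genes of these pathways were read from 8 lists by role, of which 73 of 85 genes were measured. None passed the adjusted threshold in limma, and 16 (21.9%) had an unadjusted p under 0.05, 9 higher and 7 lower in sickle, beside 8.69% of all genes. The genes of these lists were mostly bright, with 61 of 73 above the 95th percentile of the olfactory receptor rows. A fit of only the genes at or above the median brightness left out the dimmer of the 73. Of those kept, 15 had such a p, beside 12.2% of all genes in that fit. Of the 73 genes, 19 (26.0%) had no overlap between the groups, 11 higher and 8 lower, beside 16.0% of all genes. A mean above control was seen for 44 of the 73, beside 48.4% of all genes, and their median difference was 0.05 beside -0.01 over all genes. The count of 16 was 14 without sickle replicate 3, beside 9.20% of all genes, and 9, 7 and 9 without control replicates 1, 2 and 3, beside 6.37%, 6.08% and 6.32% of all genes. The lists were chosen with earlier results of these data known and were not tested as sets.

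Of 12 measured angiotensin enzymes, receptors and helpers, 9 were below control and 3 had an unadjusted p under 0.05, all lower; the median difference of the 12 was -0.13. Mme, neprilysin, which breaks down angiotensin and natriuretic peptides, had 7.77, 7.62 and 7.48 in control and 7.41, 7.20 and 7.02 in sickle. The sickle arrays were all below control, with a difference of -0.41 ± 0.13. Hsd11b1, which regenerates active glucocorticoid, differed by -0.38 ± 0.13. Neither passed (limma adjusted p = 0.487 and 0.492). Cyp11b2, which also had an unadjusted p under 0.05, differed by -0.27 ± 0.10 at a level within the range of the olfactory receptor rows. Agtr1b, Agtr2 and Mas1, also lower, and Cma1, which was higher, lay within that range too.

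Among the 6 other endothelin genes, Kel and Edn3 had an unadjusted p under 0.05, in opposite directions. Kel, the Kell blood group protease of the red-cell membrane, which can process endothelin-3, had 3.62, 3.58 and 3.80 in control and 4.33, 4.57 and 4.43 in sickle. The groups were well apart, with a difference of 0.78 ± 0.11 and a limma adjusted p of 0.0604, though at a mean of 4.05 the gene lay within the range of the olfactory receptor rows. After a second quantile normalisation or with array weights its limma adjusted p was 0.0448. Those were the 2 of 12 alternatives in which Kel passed, and over the 12 its adjusted p reached 0.337. Red-cell markers moved with it, with 10 of 10 measured markers higher in sickle, a median shift of 1.34, 1.95 and 1.58 in the sickle arrays, and a mean level from 5.78 to 5.87 in control and from 6.95 to 7.41 in sickle. The part of red cells in the Kel difference was not tested. Edn3, the endothelin-3 gene, had 6.22, 6.61 and 6.10 in control and 5.94, 5.89 and 5.98 in sickle, lower in each, with a difference of -0.37 ± 0.14 (limma adjusted p = 0.542) and -0.22 without control replicate 2. Ece1, which releases mature endothelin-1 from its precursor, differed by 0.04 ± 0.15 and Ece2 by 0.12 ± 0.14.

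Of the 6 other adrenergic receptor genes, Adra2c was the 1 measured and differed by 0.22 ± 0.14 (0.13 without control replicate 1 and 0.14 without sickle replicate 1), at a level within the range of the olfactory receptor rows. Among 8 genes of catecholamine synthesis, uptake and breakdown, Maob, the mitochondrial monoamine oxidase B, had 9.36, 9.31 and 9.15 in control and 8.87, 8.87 and 8.62 in sickle. All sickle arrays were below control, with a difference of -0.49 ± 0.11 (limma adjusted p = 0.325) and -0.41 without sickle replicate 3. Slc6a2, the noradrenaline transporter of sympathetic nerve endings, differed by -0.27 ± 0.18, by -0.08 without sickle replicate 3 and by -0.42 without sickle replicate 1. Th and Dbh, which make noradrenaline, differed by -0.08 ± 0.10 and -0.08 ± 0.12. Slc6a2 and Dbh lay within the range of the olfactory receptor rows.

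Downstream of the receptors, the 11 measured receptor kinases, arrestins and RGS proteins (which shorten G-protein signals) had a median of -0.08, with 1 gene at an unadjusted p under 0.05. Arrb1, beta-arrestin 1, which uncouples and internalises receptors, differed by 0.35 ± 0.15, and Grk6, a receptor kinase, by 0.28 ± 0.12. Without sickle replicate 3 these differences were 0.19 and 0.17. Of 14 G proteins, adenylyl cyclases and phospholipases, 3 had such a p, with Gnai2, an inhibitory G-protein subunit, at 0.26 ± 0.10 and Adcy9, an adenylyl cyclase, at -0.24 ± 0.10. Gnaq and Gna11, the G-protein subunits that alpha-1, AT1 and endothelin receptors use, differed by 0.15 ± 0.11 and -0.06 ± 0.09. Adcy5 and Adcy6, the main cardiac adenylyl cyclases, differed by 0.02 ± 0.13 and -0.03 ± 0.10.

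Of 10 kinases and phosphodiesterases, 3 had an unadjusted p under 0.05. Pde3a, the phosphodiesterase that breaks down cyclic AMP at the cardiac sarcoplasmic reticulum, had 9.68, 9.79 and 9.65 in control and 9.40, 9.48 and 9.05 in sickle. It was below control in every sickle array, with a difference of -0.40 ± 0.13 (limma adjusted p = 0.492) and -0.27 without sickle replicate 3. Prkar1a, a regulatory subunit of protein kinase A, differed by 0.25 ± 0.09 (limma adjusted p = 0.512). Of 11 genes known to respond to these receptors, 9 were above control and 3 had an unadjusted p under 0.05, all higher; the median difference of the 11 was 0.28. Against the control mean, the median of these genes stood at -0.11, 0.16 and 0.60 in sickle replicates 1, 2 and 3, with the shift mainly in replicate 3. Rcan1, a target of calcineurin, differed by 0.28 ± 0.12, beside 0.57 ± 0.17 for Nppa, the atrial natriuretic peptide gene, and 0.68 ± 0.26 for the early growth response gene Egr1. Nppa, which is also one of the atrial markers, differed by 0.37 without sickle replicate 3 and by 0.59 without control replicate 3. Egr1 differed by 0.99 and 0.41 without control replicates 1 and 3.

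**Figure D4:**
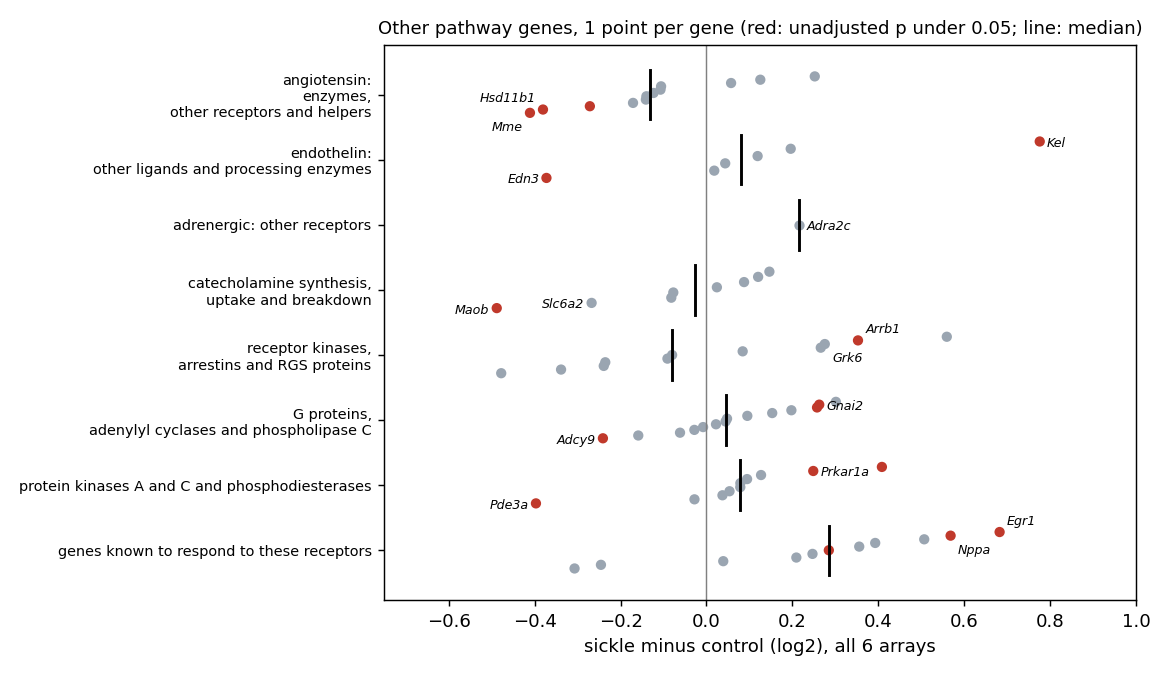
Sickle minus control on the log2 scale (x axis) for 73 other genes of these pathways, with 1 point per gene in 8 lists by role (y axis), red where the unadjusted p is under 0.05, and a vertical line at the median of each list. Most genes lie near 0; Kel at 0.78 and Maob at -0.49 are the furthest on either side, and no gene passed the adjusted threshold.

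The genes whose 6 array values most resembled each member, among 10317 named genes at or above the median brightness, were Xirp1 for Agt, Bmp2k for Ace, Rrn3 for Agtr1a, Atxn7l1 for Edn1, Xiap for Ednrb and Isca2 for Adra1b. Pearson's r over the 6 arrays was 0.98 for Edn1 and 0.99 or more for the other 5. Such likeness was common, since r exceeded 0.95 with 22 genes for Edn1, 66 for Agt, 127 for Adra1b, 132 for Ednrb, 193 for Agtr1a and 291 for Ace. The arrays fall into 2 groups, with sickle replicate 3 apart, and all genes share these arrays, so r is given as a description.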

How the data were processed

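Gene expression in left ventricle was measured on 6 arrays, grouped by sample title. The authors deposited log2 values made with RMA, per the submitters' processing notes, which give no version; RMA usually corrects background, normalises by quantiles and summarises probes. Its settings, scan batches and genome build are not stated there or in the labels. Of 25293 rows, 22030 had 1 gene symbol, 685 several and 2578 none. The brightest row by its 6-array mean stood for a gene, which gave 21506 genes, without a filter on dim genes. Differences were fitted with limma 3.58.1 (R 4.3.3; lmFit and eBayes, group as the only term, two-sided) and adjusted over all genes by Benjamini-Hochberg at 0.05. The procedure was tested on simulated data. Arrays give no read depth, so their number limits the precision. The members, lists and alternatives were chosen with earlier results of these data known. Named genes are the members, in each pathway list those past the threshold or otherwise the 2 with the smallest p, and the gene most like each member; other genes named were chosen after their values were seen. The design's protein comparison was not run. Promoter windows came from RefSeq tables (GRCm38.p6). Figures were drawn with matplotlib 3.10.9.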

Additional observations from a re-analysis of the deposited data

How the results depend on the processing

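Over 13 alternatives (leaving out each array, the mean over a gene's rows, array weights, a trended robust variance, the brighter genes alone, centring on medians, quantile normalisation anew, and a block for the replicate number) all 6 members kept their direction and none passed the adjusted threshold. The trended variance, the brighter genes alone, the mean over rows and the block leave a member's difference unchanged. Its direction was therefore fixed in advance there. The lowest adjusted p was 0.110 for Ednrb, 0.189 for Adra1b, 0.253 for Agt, 0.408 for Ace, 0.415 for Edn1 and 0.482 for Agtr1a. Array weights, which gave sickle replicate 3 a weight of 0.36 and the others 1.05 to 1.39, moved Ace to 0.38 and Agtr1a to -0.19. The number of members at an unadjusted p under 0.05 was 3 to 5, beside 6.08% to 12.2% of the genes tested, the highest share being that of the brighter genes alone. With 1 array left out, 4 or 5 members had no overlap, beside 24.46% to 27.99% of all genes. Of the pathway genes, Kel passed after a second quantile normalisation and with array weights, which gave 1 called gene each in place of 0. It passed in 2 of the 12 alternatives that held it, with a limma adjusted p up to 0.337. Leaving out 1 array gave 7 to 15 pathway genes at an unadjusted p under 0.05, beside 6.08% to 9.67% of all genes, and 4 to 36 genes called over the whole table in place of 39. With the replicate number as a block 12 genes were called. The numbers were not taken to pair the mice, since deviations of same-numbered arrays correlated at 0.11, -0.05 and 0.05, and the block changed no call of a member or pathway gene. The counts at an unadjusted p and of genes without overlap were added after seeing the data. For counts that moved, the cause was not tested.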
